A study of Danio rerio with 18 samples.

Results

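The genes described here copy the genome before a cell divides and part the copies in mitosis. They were taken by symbol from the array's annotation. The rule covered the minichromosome maintenance (mcm) and origin recognition (orc) genes, the alpha, delta and epsilon DNA polymerases, replication factor C, pcna and ribonucleotide reductase. It also covered cyclins A, B, D and E, cdk1, cdk2, the aurora and polo-like kinases, the bub checkpoint genes, centromere proteins, 3 groups of mitotic kinesins and top2a. Of 8793 named genes, 55 were members, each read from its brightest probe set over all arrays. By known function 28 act in replication, 19 in mitosis, 5 are cyclins A, D or E or cdk2, and the remaining 3 are the polo-like kinases plk2b, plk3 and plk4. The rule picks genes by symbol alone, but it and the roles were set with earlier results of these data known. The symbols rrm2, ccne2, aurkb, bub1 and cenpf, which the rule would also take, had no probe set with that single symbol and were not analysed here.

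The fins came from adult male zebrafish of the AB strain whose caudal fin was cut at the fork of its rays and left to regrow. On the day of amputation the TCDD fish received 50 ng of TCDD per g of body mass in phosphatidylcholine liposomes, and the vehicle fish received the liposomes alone. TCDD is a dioxin that binds the aryl hydrocarbon receptor. Regrown tissue with up to a few segments of old ray was collected 1, 3 or 5 days after the cut (days post amputation, dpa), so that there were 6 groups: TCDD and vehicle at each day. Each group had 3 arrays, each of RNA pooled from 10 fish, and errors therefore describe pools and not fish. The labels give the pools letters from A to E, and values per array are listed below in the order of the letters: A, B and D for TCDD and B, D and E for vehicle at 1 dpa, A, B and C for either exposure at 3 dpa, and A, B and D for TCDD and A, B and C for vehicle at 5 dpa.

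A regrowing fin is rebuilt from a blastema, a mass of proliferating cells under a wound epidermis. Origins are licensed in G1 when the origin recognition complex loads the MCM helicase, and polymerases with the PCNA clamp copy the DNA in S phase. Cyclin B with Cdk1, the polo and aurora kinases and the kinesin motors then drive mitosis. In cycling cells transcripts of the replication machinery typically peak around the G1 to S transition, and those of the mitotic machinery in G2 and M. In a piece of tissue, fewer cells of a type and less RNA per cell cannot be told apart.

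Values are log2(intensity + 1) and differences are on that scale, which understates those of dim transcripts. A member was called when limma, fitted to 15502 probe sets on all 18 arrays, gave an adjusted p under 0.05 (Benjamini-Hochberg, two-sided). Every adjusted p below comes from limma. Arrays had a median intensity between 75.1 and 84.1, and 8 members (mcm6, mcm6l, mcm9, bub1bb, ccna1, ccnb1l, ccnb2 and kif20bb) had a mean level under the 40th percentile of all probe sets. As a check of the tissue, 16 of 16 epidermal markers were above that percentile, and 11 of 12 skeletal muscle markers and 5 of 5 germ cell markers were under it. Some arrays stood apart within their groups. Both letter C arrays at 3 dpa had the widest GAPDH 3′ minus 5′ control difference, a sign of RNA or labelling quality, at 4.06 in TCDD and 3.38 in vehicle fins. Both letter B arrays at 1 dpa were next, at 2.95 in TCDD and 3.03 in vehicle fins, and the other 14 arrays lay between 1.38 and 2.42. The same difference of the actin control was widest elsewhere, at 2.32 on vehicle letter E at 1 dpa. It was 1.45 on TCDD and 1.98 on vehicle letter B at 1 dpa, and 2.096 on TCDD and 1.63 on vehicle letter C at 3 dpa. Of these letter B and C arrays, only TCDD letter C had the widest actin difference of its group. For the step from 1 to 3 dpa, counts of calls and role medians are given with and without the letter B and C arrays named above. Fits without an array have less power for every probe set, and the share of all probe sets called in them is not given here. Their counts are therefore not set against the whole array. Counts of members whose groups do not overlap rest on all arrays.

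Between 1 and 3 dpa the replication members that changed all fell, in TCDD and in vehicle fins, and the mitosis members that changed all rose, in TCDD fins. In TCDD fins 11 of 55 members were called, 3 higher and 8 lower at 3 than at 1 dpa, where 10.8% of all probe sets were called (4.73% higher and 6.04% lower). In vehicle fins 3 of 55 were called, all lower, against 5.51% of all probe sets (2.03% lower). The members' share was thus 20% in TCDD fins, above that of the whole array, and 5.45% in vehicle fins, close to it. The whole array holds many dim probe sets, whereas each member is read from its brightest. With the pool letter as a block, 20 members were called in TCDD fins (9 higher, 11 lower) and 8 in vehicle fins (all lower), where 14.8% and 6.07% of probe sets were called. No member was called for TCDD against vehicle at any day.

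**Figure D1:**
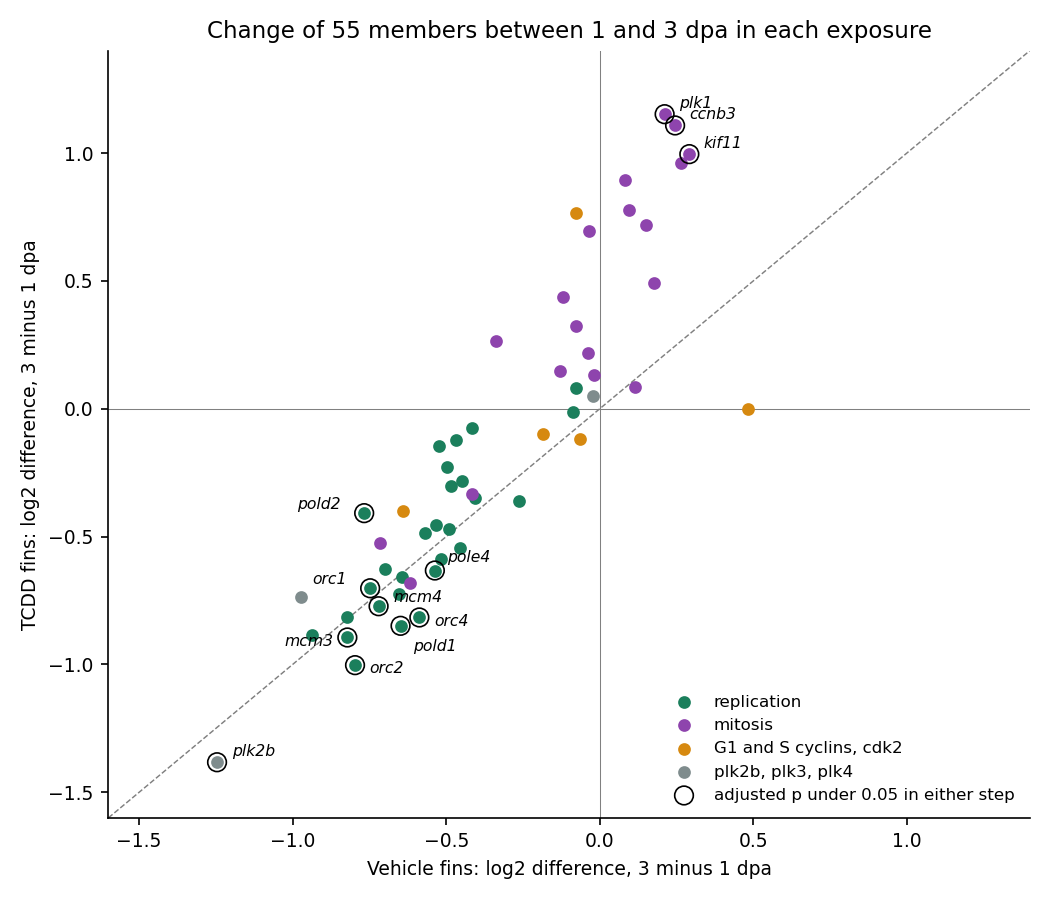
Log2 difference between 3 and 1 dpa in TCDD fins (vertical axis) and vehicle fins (horizontal axis) for the 55 members, coloured by role, with the dashed line at equal change. Circled members had an adjusted p under 0.05 in either exposure, the replication members lie almost all at or below 0 on both axes, and most mitosis members lie above the dashed line.

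Of the 28 replication members, 27 were lower at 3 than at 1 dpa in TCDD fins and 28 of 28 in vehicle fins, with median differences of -0.52 and -0.53. The median over all probe sets was -0.02 for either exposure. The 3 dpa arrays all lay below the 1 dpa arrays, without overlap, for 16 of the 28 in TCDD fins and 21 in vehicle fins, where 15.3% and 10.4% of all probe sets were lower without overlap. With the letter as a block the medians were -0.43 in each exposure. Without both letter B arrays at 1 dpa, a choice made after seeing the data, they were -0.64 in TCDD and -0.61 in vehicle fins.

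The origin recognition complex marks where replication starts. orc1, its ATPase subunit, read 6.27, 6.48 and 6.19 in TCDD fins at 3 dpa, against 6.99, 7.06 and 6.99 at 1 dpa. In vehicle fins it read 6.49, 6.23 and 5.92 at 3 dpa, against 7.14, 6.70 and 7.03 at 1 dpa. All 3 dpa arrays were below all 1 dpa arrays in either exposure. orc1 fell in both, by 0.70 ± 0.18 in TCDD fins (log2 difference ± SE, adjusted p = 0.0186) and by 0.75 ± 0.18 in vehicle fins (adjusted p = 0.0217).

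orc2, another core subunit, read 7.28, 7.24 and 6.47 in TCDD fins at 3 dpa, against 8.32, 7.74 and 7.94 at 1 dpa, and the groups did not overlap. It fell by 1.00 ± 0.25 there (adjusted p = 0.0172). In vehicle fins the log2 difference of orc2 was -0.80 ± 0.25 (adjusted p = 0.0793), also without overlap. orc4, an ATPase subunit like orc1, fell by 0.82 ± 0.24 in TCDD fins (adjusted p = 0.0413) and had a difference of -0.59 ± 0.24 in vehicle fins (adjusted p = 0.199). orc5, orc3 and orc6 had differences of -0.88, -0.66 and -0.28 in TCDD fins and -0.94, -0.65 and -0.45 in vehicle fins, none of them called without the letter block. In the block fit orc3 and orc5 were called in TCDD fins (adjusted p = 0.0440 and 0.0475) and orc6 in vehicle fins (0.0276).

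The MCM proteins form the ring-shaped helicase that unwinds DNA at the fork. mcm3 read 8.57, 8.88 and 8.25 in TCDD fins at 3 dpa, against 9.36, 9.87 and 9.15 at 1 dpa. mcm4 read 8.70, 8.69 and 8.11 in TCDD fins at 3 dpa, against 9.33, 9.46 and 9.03 at 1 dpa. Neither pair of groups overlapped, and both genes fell in TCDD fins, mcm3 by 0.89 ± 0.25 (adjusted p = 0.0308) and mcm4 by 0.77 ± 0.22 (adjusted p = 0.0368). In vehicle fins mcm3 read 8.75, 8.91 and 8.50 at 3 dpa, against 9.93, 9.28 and 9.42 at 1 dpa, and mcm4 read 8.76, 8.35 and 8.25 at 3 dpa, against 9.57, 8.88 and 9.06 at 1 dpa. These groups did not overlap either, but the calls were missed (adjusted p = 0.0691 for mcm3 and 0.0764 for mcm4) and made with the letter as a block (0.00624 and 0.0274).

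The other bright subunits of the helicase had differences of like size that were not called. In TCDD fins these were -0.72 for mcm2, -0.81 for mcm5 and -0.55 for mcm7 (adjusted p = 0.118, 0.0739 and 0.302). In vehicle fins they were -0.65, -0.82 and -0.45 (adjusted p = 0.212, 0.103 and 0.490). The dim members mcm6, mcm6l and mcm9 lay between -0.14 and 0.08 in TCDD fins and between -0.52 and -0.08 in vehicle fins. A second, dim probe set of mcm3 had a difference of -0.15 in TCDD fins (adjusted p = 0.909) and -0.93 in vehicle fins (adjusted p = 0.344), and with the mean of the probe sets mcm3 was not called in TCDD fins (-0.52, adjusted p = 0.265).

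Polymerase delta, which with epsilon copies most of the genome, gave the call that held best. pold1, its catalytic subunit, read 7.90, 7.86 and 7.45 in TCDD fins at 3 dpa, against 8.70, 8.58 and 8.48 at 1 dpa. In vehicle fins it read 8.02, 7.56 and 7.46 at 3 dpa, against 8.38, 8.12 and 8.48 at 1 dpa. Every 3 dpa array was below every 1 dpa array of its exposure. pold1 fell by 0.85 ± 0.17 in TCDD fins (1.80-fold, adjusted p = 0.00448) and by 0.65 ± 0.17 in vehicle fins (1.57-fold, adjusted p = 0.0346). Of the 14 calls in the steps from 1 to 3 dpa, that of pold1 in TCDD fins was the only one to hold with each of the 18 arrays left out in turn (adjusted p up to 0.0281). A dimmer second probe set of pold1 had differences of -0.51 in TCDD and -0.87 in vehicle fins (adjusted p = 0.669 and 0.472), and the call did not hold for the mean of both sets in TCDD fins (adjusted p = 0.190) or in vehicle fins (0.178).

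pold2, an accessory subunit of polymerase delta, fell in vehicle fins by 0.77 ± 0.19 (adjusted p = 0.0250), with 7.75, 7.49 and 7.27 at 3 dpa, against 8.12, 8.18 and 8.51 at 1 dpa. In TCDD fins it read 7.85, 7.77 and 7.49 at 3 dpa, against 8.49, 7.88 and 7.96 at 1 dpa (-0.41 ± 0.19, adjusted p = 0.205). The groups did not overlap in either exposure. pole4, a small subunit of polymerase epsilon, read at most 7.56 on the TCDD arrays of 3 dpa and at least 7.84 on those of 1 dpa. It fell by 0.63 ± 0.18 there (adjusted p = 0.0353), a call not made with the letter block (0.0953), and had a difference of -0.54 ± 0.18 in vehicle fins (adjusted p = 0.105).

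The sliding clamp pcna was the brightest member. Its arrays lay between 11.74 and 12.52 in TCDD fins at 3 dpa, below all those at 1 dpa (12.56 to 12.71), and the difference was -0.49 ± 0.19 (adjusted p = 0.133). In vehicle fins it lay between 11.79 and 12.43 at 3 dpa and between 12.56 and 12.84 at 1 dpa (-0.57 ± 0.19, adjusted p = 0.107). rfc4, a subunit of the clamp loader, had differences of -0.59 in TCDD and -0.52 in vehicle fins (adjusted p = 0.0863 and 0.184), the first called with the letter block (0.0433). pola1, the catalytic subunit of the priming polymerase alpha, had -0.45 and -0.53 (adjusted p = 0.429 and 0.406). rrm1, the large subunit of ribonucleotide reductase, which supplies deoxynucleotides, had -0.12 in TCDD and -0.47 in vehicle fins (adjusted p = 0.866 and 0.414), with overlapping groups.

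The replication step was larger with the letter C pools than without them. At 3 dpa the letter C array was the lowest of its group for 25 of 28 replication members in TCDD and again 25 of 28 in vehicle fins. Relative to each member's mean over all arrays, the median replication member stood at -0.51 on letter C, 0.06 on A and 0.11 on B in TCDD fins, and at -0.45, 0.10 and -0.10 in vehicle fins. Without both letter C arrays the median step was -0.32 in TCDD and -0.37 in vehicle fins, 2 members were called in TCDD fins (1 higher, 1 lower) and 0 in vehicle fins. The GAPDH difference was widest on the same arrays, and its part in the result was not tested. Within a letter held at both days, the median step of replication members was -0.57 for A and -0.18 for B in TCDD fins and -0.36 for B in vehicle fins.

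**Figure D2:**
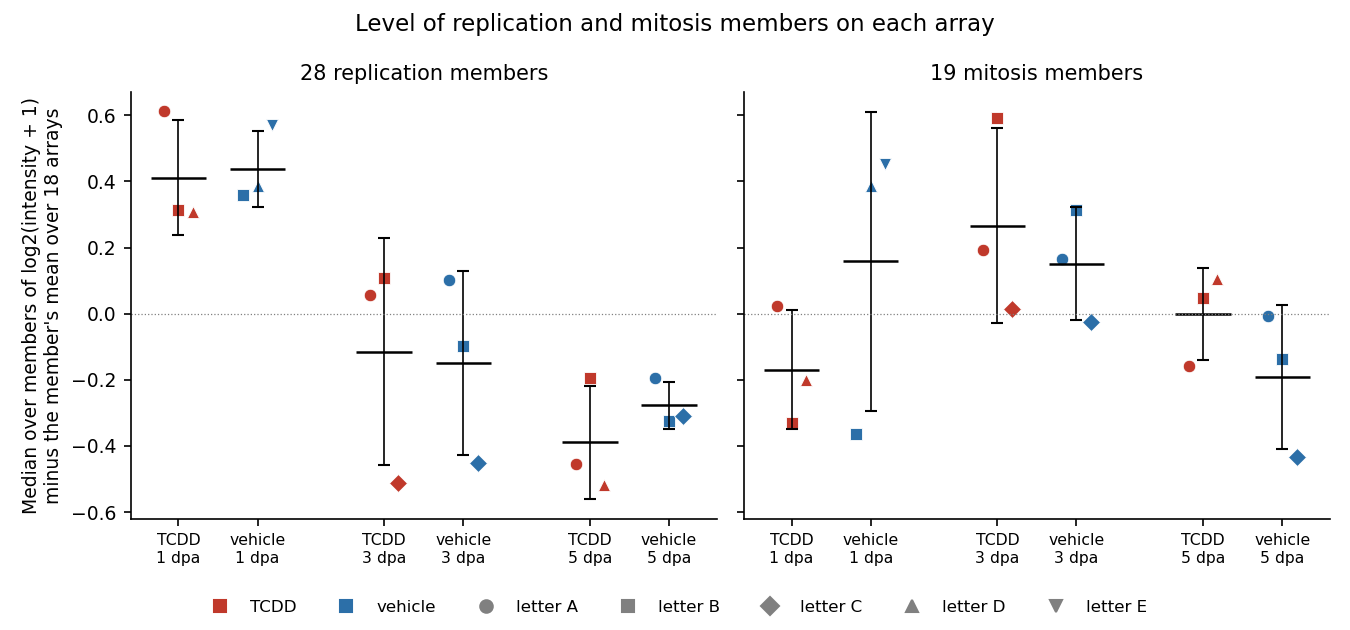
Level of each role on each array: the median over its members of log2(intensity + 1) minus the member's mean over 18 arrays, for the 28 replication members (left) and the 19 mitosis members (right), by exposure and day. Points are arrays with a shape per pool letter, and bars give the mean and SD of 3 arrays. The replication members are highest at 1 dpa in both exposures, whereas the mitosis level at 1 dpa is at most 0.02 on the TCDD arrays and is -0.36 on vehicle letter B, 0.39 on D and 0.45 on E.

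Among the mitosis members most differences ran the other way in TCDD fins. There 16 of 19 were higher at 3 than at 1 dpa, with a median difference of 0.44, and for 8 all 3 dpa arrays were above all 1 dpa arrays (11.8% of all probe sets were higher without overlap). In vehicle fins 9 of 19 were higher, with a median of -0.02 and none higher without overlap (8.70% of all probe sets). With the letter as a block the medians were 0.60 and 0.29. Without both letter C arrays at 3 dpa they were 0.57 in TCDD fins (15 of 19 higher) and 0.14 in vehicle fins (12 of 19 higher).

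plk1, the polo-like kinase of mitotic entry and spindle assembly, read 9.08, 9.62 and 9.01 in TCDD fins at 3 dpa, against 8.57, 7.56 and 8.13 at 1 dpa. In vehicle fins it read 8.99, 8.99 and 8.90 at 3 dpa, against 7.83, 9.06 and 9.36 at 1 dpa. The groups did not overlap in TCDD fins, and in vehicle fins the 1 dpa arrays spanned the whole range of the 3 dpa arrays. plk1 rose by 1.15 ± 0.33 in TCDD fins (2.22-fold, adjusted p = 0.0357) and had a difference of 0.21 ± 0.33 in vehicle fins (adjusted p = 0.860).

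ccnb3, a B-type cyclin, read 7.19, 7.92 and 7.11 in TCDD fins at 3 dpa, against 6.65, 6.22 and 6.03 at 1 dpa. It rose by 1.11 ± 0.28 (adjusted p = 0.0201), and each of its other 3 probe sets was called too, with differences of 0.80 to 0.95. Some of these sets share sequence, as their names mark, and are not independent. In vehicle fins ccnb3 had a difference of 0.25 ± 0.28 (adjusted p = 0.778). kif11, the kinesin that pushes the spindle poles apart, read 8.91, 9.35 and 8.74 in TCDD fins at 3 dpa, against 8.49, 7.52 and 7.99 at 1 dpa, without overlap. It rose by 1.00 ± 0.30 (adjusted p = 0.0477), and had 0.29 ± 0.30 in vehicle fins (adjusted p = 0.740).

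Other members that drive mitosis had differences of like size in TCDD fins, but were called there with the letter as a block and not without it. ccnb1 (cyclin B) and its kinase cdk1 had differences of 0.96 ± 0.38 and 0.89 ± 0.35 (adjusted p = 0.135 and 0.126, with the block 0.0131 and 0.0206). The kinase aurka, which matures the spindle poles, had 0.72 ± 0.27 (0.110, with the block 0.0221). The kinesin cenpe, which moves chromosomes to the spindle equator, and kif23, a kinesin of cell cleavage, had 0.78 and 0.69 (0.124 and 0.198, with the block 0.0481 and 0.0286). In vehicle fins these 5 members had differences of -0.03 to 0.26 without the block and 0.47 to 0.98 with it, and none was called.

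A few mitosis members did not share this direction, or had smaller differences in it. bub3, a spindle checkpoint protein, had differences of -0.68 in TCDD and -0.62 in vehicle fins (adjusted p = 0.179 and 0.292), and its TCDD groups did not overlap. cenps, a centromere protein, had -0.33 and -0.41 (adjusted p = 0.508 and 0.454). The probe sets of kif20a, a kinesin of cytokinesis, disagreed in sign: the brighter set had -0.52 and the dimmer set 0.77 in TCDD fins (adjusted p = 0.332 and 0.102), so no direction is given for that gene. top2a, the topoisomerase that untangles sister chromatids, had 0.22 in TCDD and -0.04 in vehicle fins (adjusted p = 0.370 and 0.952), and 4 of its 5 probe sets were under the 40th percentile of level.

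The letter B pools bore on these mitosis values. At 1 dpa the letter B array was the lowest of its group for 13 of 19 mitosis members in TCDD fins and 18 of 19 in vehicle fins. cdk1, for example, read 9.02, 8.18 and 8.80 on letters A, B and D of TCDD fins and 8.46, 9.77 and 9.76 on letters B, D and E of vehicle fins. Letter B was thus the lowest array of either exposure. These letter B arrays had the widest GAPDH differences of their day, whose part in the result was not tested. Within letter B, the mitosis median was 0.84 higher at 3 than at 1 dpa in TCDD fins (17 of 19 higher) and 0.77 higher in vehicle fins (16 of 19). Within letter A of the TCDD fins it was 0.20 higher (12 of 19). Without both letter B arrays at 1 dpa, a choice made after seeing the data, the median step of the mitosis members was 0.35 in TCDD fins (16 of 19 higher) and -0.28 in vehicle fins (2 of 19 higher). Without them 4 members were called in TCDD fins (2 higher, 2 lower) and 1 in vehicle fins (lower). With 1 array left out at a time the mitosis median ran from 0.25 to 0.57 in TCDD fins and, with a change of sign, from -0.28 to 0.16 in vehicle fins.

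**Figure D3:**
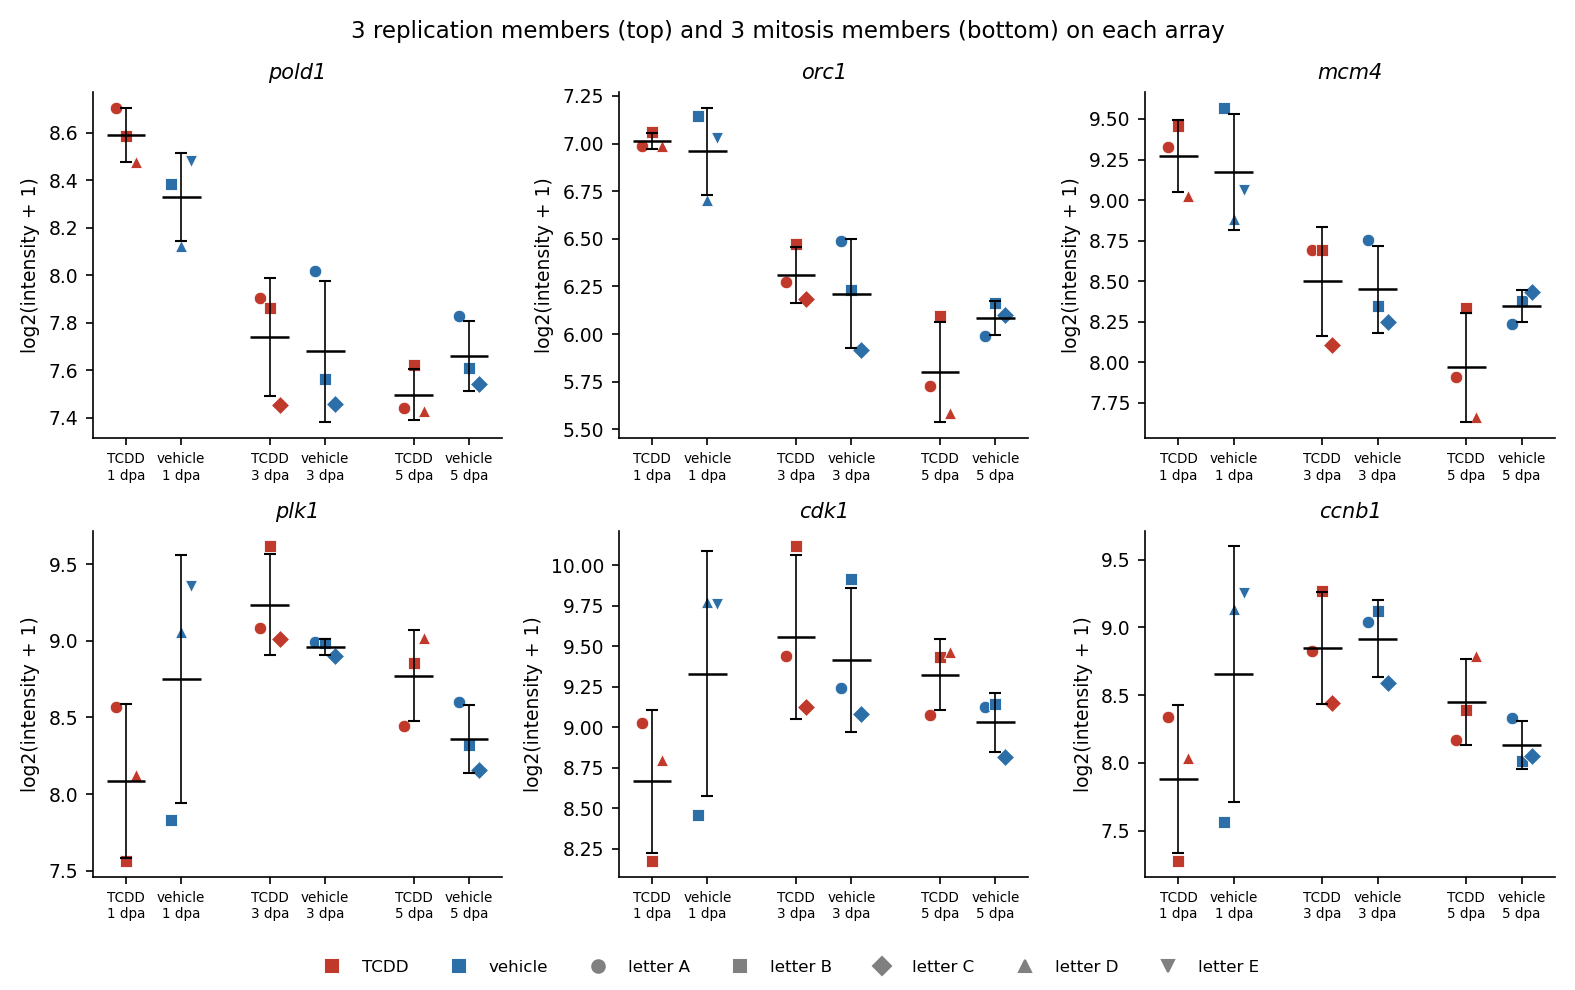
Values per array, as log2(intensity + 1), of the replication members pold1, orc1 and mcm4 (top) and the mitosis members plk1, cdk1 and ccnb1 (bottom) by exposure and day. Points are arrays with a shape per pool letter, and bars give the mean and SD of 3 arrays. In the top row every 3 dpa array is below every 1 dpa array of its exposure, and in the bottom row letter B is the lowest array of both exposures at 1 dpa.

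Single arrays decided most of the calls. Without TCDD letter C at 3 dpa, 2 members were called in TCDD fins, and without vehicle letter C, 0 in vehicle fins. The share of all probe sets called in these fits is not given, so the drop may not be particular to the members. In TCDD fins leaving out letter C at 3 dpa ended the calls of orc1 (adjusted p = 0.0780), orc2 (0.0905), orc4 (0.192), mcm3 (0.135), mcm4 (0.171), pole4 (0.165), plk1 (0.0633), kif11 (0.0693) and plk2b (0.0614). Leaving out letter B at 1 dpa left 2 calls and ended those of plk1 (0.144), ccnb3 (0.0645), kif11 (0.181), orc1 (0.0598), orc4 (0.0927), mcm3 (0.130), mcm4 (0.124), pole4 (0.0556) and plk2b (0.0890). Leaving out TCDD letter B at 3 dpa ended those of plk1 (0.134), ccnb3 (0.0934), kif11 (0.169), pole4 (0.0568) and plk2b (0.0512). Without letter A at 1 dpa the calls of orc2 (0.0740), orc4 (0.140), mcm3 (0.0562), mcm4 (0.0963) and pole4 (0.0990) ended. That fit called 7 members (4 higher, 3 lower), among them a member not called with all arrays. Without letter A at 3 dpa the calls of plk1 (0.0637), kif11 (0.0897), orc1 (0.0566), orc4 (0.0860), mcm3 (0.0737) and plk2b (0.0663) ended. That fit called 6 members (1 higher, 5 lower), again with a member not called with all arrays. Without letter D at 1 dpa the calls of plk1 (0.0809), ccnb3 (0.0814), kif11 (0.111), orc4 (0.0572) and pole4 (0.0994) ended, and 6 were left. The calls of kif11 and orc4 were also lost without single arrays of other groups. These were vehicle letters A, B and C at 3 and 5 dpa and TCDD letters A and B at 5 dpa for kif11 (adjusted p up to 0.0614). For orc4 they were vehicle letters D and E at 1 dpa, A at 3 dpa and A, B and C at 5 dpa (up to 0.0546).

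In vehicle fins the 3 calls ended without letter C at 3 dpa (adjusted p = 0.126 for orc1, 0.173 for pold1 and 0.135 for pold2) or letter E at 1 dpa (0.0804, 0.143 and 0.118). The call of orc1 was also lost without letter B at 1 dpa (0.0659), that of pold1 without letter B at 1 dpa (0.0763) or 3 dpa (0.0933), and that of pold2 without letter D at 1 dpa (0.0542) or letter B at 3 dpa (0.0553). The count was 1 without letter B or E at 1 dpa. It was 5 without TCDD letter C at 3 dpa or TCDD letter B or D at 5 dpa, which enter only through the shared estimate of spread.

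The roles were also set against each other on each array, with every member taken relative to its own mean over the 18 arrays. That centring places the gap between the roles near 0 over all arrays, so its sign means only above or below that mean. At 1 dpa the replication median minus the mitosis median was 0.59, 0.65 and 0.51 on the 3 TCDD arrays and 0.72, -0.0017 and 0.12 on the 3 vehicle arrays. At 3 dpa the values were -0.14, -0.48 and -0.53 in TCDD and -0.06, -0.41 and -0.43 in vehicle fins. At 5 dpa the values were -0.30, -0.24 and -0.62 in TCDD and -0.19, -0.19 and 0.12 in vehicle fins. Vehicle letter B at 1 dpa was thus near the TCDD arrays, while letters D and E were not.

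Whether the step from 1 to 3 dpa differed between exposures was tested directly. The difference of the steps, TCDD minus vehicle, was positive for 17 of 19 mitosis members (median 0.56, with the letter block 0.36, and 0.69 without letter B at 1 dpa) and for 17 of 28 replication members (median 0.05). limma called 0 of 55 members, where 0% of all probe sets were called, and 3 members had an unadjusted p under 0.05 against 4.32% of all probe sets. These 3 were ccnb3 (0.86 ± 0.40), ccna2 (0.84 ± 0.38) and cenpt (0.60 ± 0.28). plk1 had 0.94 ± 0.47. The rises called in TCDD fins are therefore not shown to differ from the step in vehicle fins.

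Compared within a day, TCDD and vehicle fins were not told apart for any member. At 1 dpa limma called 0 of 55 members, where 0.245% of all probe sets were called, and 1 member had an unadjusted p under 0.05 against 8.01% of all probe sets. That member was ccnb3, with 6.65, 6.22 and 6.03 in TCDD fins and 6.42, 7.35 and 7.07 in vehicle fins (-0.65 ± 0.28, adjusted p = 0.584). At 3 dpa 0 were called against 1.11% of probe sets, and 0 had an unadjusted p under 0.05, against 10.8%. At 5 dpa 0 were called against 1.64%, and 5 had an unadjusted p under 0.05, against 17.6%. On the mean of the 3 days 0 were called against 3.78%, and 1 (ccne1) had an unadjusted p under 0.05, against 15.6%. An F test of whether the TCDD effect was unequal at the 3 days also called 0 of 55, against 0.0516% of probe sets, with 3 members (pole3, kif11 and ccnb3) at an unadjusted p under 0.05 against 12.2%.

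**Figure D4:**
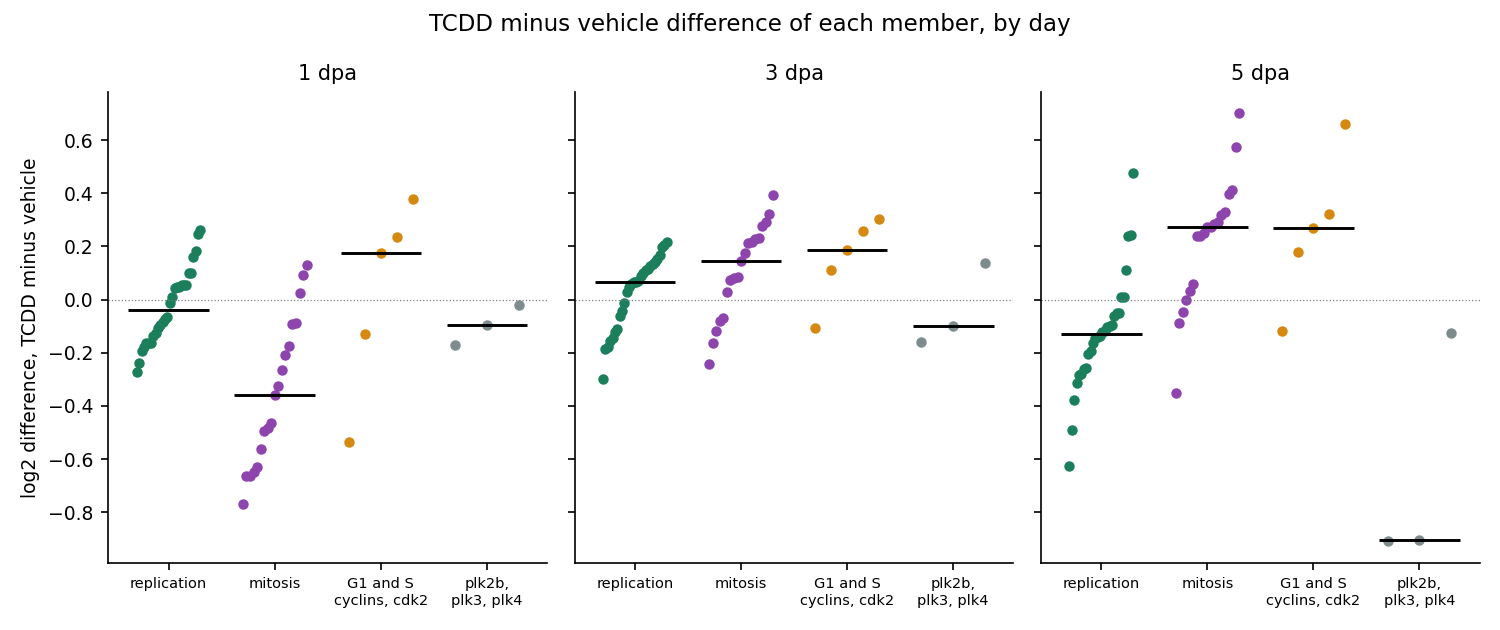
Log2 difference, TCDD minus vehicle, of each member at 1, 3 and 5 dpa, sorted within its role, with a black line at the median of the role. The mitosis median is -0.36 at 1 dpa, 0.14 at 3 dpa and 0.27 at 5 dpa, the replication median stays between -0.13 and 0.07, and no single member had an adjusted p under 0.05.

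By role, the TCDD minus vehicle median of the replication members was -0.04 at 1 dpa, 0.07 at 3 dpa and -0.13 at 5 dpa, where that of all probe sets was 0.05, 0.04 and -0.04. For the mitosis members it was -0.36 (16 of 19 lower), 0.14 (14 of 19 higher) and 0.27 (15 of 19 higher). With the letter block the mitosis medians were -0.26 at 1 dpa and 0.09 at 5 dpa (11 of 19 higher). The 1 dpa value was -0.54 without both letter B arrays, and between -0.59 (without vehicle letter B) and -0.20 (without vehicle letter D) with 1 array left out. At 3 dpa the mitosis median ran from 0.0057 to 0.21 with 1 array left out, and within letters A, B and C it was 0.02, 0.20 and 0.09. At 5 dpa leaving out vehicle letter C gave 0.16. In spite of the lower median at 1 dpa, no mitosis member was lower without overlap, where 3.01% of all probe sets were. plk1 shows how the arrays lay, with 8.57, 7.56 and 8.13 in TCDD fins and 7.83, 9.06 and 9.36 in vehicle fins, so that vehicle letter B lay among the TCDD arrays. ccnb1 showed the same layout, with 8.34, 7.28 and 8.03 in TCDD fins and 7.57, 9.14 and 9.25 in vehicle fins. The differences were -0.66 ± 0.33 for plk1 and -0.77 ± 0.38 for ccnb1 (adjusted p = 0.655 each). Within letter D, which both exposures hold at 1 dpa, the median difference of the mitosis members was -0.78 (17 of 19 lower), and within letter B it was -0.15 (13 of 19 lower).

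Osteoblast markers, like the mitosis median, were mostly lower in TCDD fins at 1 dpa, and unlike that median also at the later days. At 1 dpa the summed intensity of 12 of them was 13988 to 17342 in TCDD fins and 19504 to 30229 in vehicle fins. Of these 12, 1 was called, lower. The 21 markers of blastema and fin mesenchyme summed to 20713 to 28490 in TCDD and 21693 to 29586 in vehicle fins, with 0 called. Of 12 leukocyte markers 10 were lower in TCDD fins (median -0.53), 6 had an unadjusted p under 0.05, and 1 was called higher and 1 lower. Of all probe sets 0.245% were called and 8.01% had an unadjusted p under 0.05 in this comparison. The leukocyte sums overlapped, at 13840 to 19986 in TCDD and 14608 to 21385 in vehicle fins. Sums of intensity are weighted to the brightest markers. Among leukocyte markers these were cd74a and mmp9 (mean levels 13.64 and 11.89), and among osteoblast markers col1a1a, sparc and col1a2 (13.53, 13.48 and 13.38). Of the 12 osteoblast markers 10 were lower at 1 dpa (median -0.68). They stayed lower at 3 dpa (median -0.47, 9 of 12 lower) and 5 dpa (median -0.52, 11 of 12 lower). The mitosis medians of those days were 0.14 and 0.27. The leukocyte medians of those days were -0.29 and -0.26. Those of the blastema and mesenchyme markers were -0.32 (16 of 21 lower) at 3 dpa and -0.04 (11 of 21 lower) at 5 dpa. Their sums did not overlap at 3 dpa, at 25340 to 28232 in TCDD and 33026 to 40413 in vehicle fins. At 5 dpa the sums overlapped, at 30973 to 43077 in TCDD and 36961 to 44544 in vehicle fins. The part of cell type in the mitosis values was not tested.

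At 5 dpa the member nearest to a call was pole3, a histone-fold subunit of polymerase epsilon that also serves in chromatin remodelling. It read 8.72, 8.62 and 8.57 in TCDD fins and 8.26, 8.02 and 8.20 in vehicle fins, without overlap, where 10.4% of all probe sets were higher without overlap. The difference was 0.48 ± 0.12 (adjusted p = 0.0679), and it passed with a constant prior (0.0458) and without TCDD letter B at 3 dpa (0.0466). ccne1 (cyclin E, which opens S phase with Cdk2) read 6.69, 6.56 and 6.73 in TCDD fins and 6.40, 6.30 and 5.30 in vehicle fins (0.66 ± 0.25, adjusted p = 0.191). ccnb2, a dim B-type cyclin, and kif11 were also higher without overlap, with 0.70 and 0.57 (adjusted p = 0.264 and 0.335). In the other direction 6 members were lower without overlap, where 17.4% of all probe sets were: plk2b, plk4 and the dim mcm6l, mcm9, ccnb1l and kif20bb. The largest differences of the day were those of plk3 and plk2b, both -0.91 (adjusted p = 0.256 and 0.209), and with the letter block they were -0.52 and -0.58. plk2b read 7.12, 6.58 and 5.73 in TCDD fins and 7.20, 7.24 and 7.70 in vehicle fins. Within the letters held by both exposures at 5 dpa the signs were mixed, with a mitosis median of -0.08 for A and 0.23 for B and a replication median of -0.28 for A and 0.10 for B.

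The cyclins of G1 and S phase and cdk2 showed no call in any comparison. ccnd1 (cyclin D1, which links growth signals to the cell cycle) read 10.02, 9.69 and 9.30 in TCDD fins at 3 dpa, against 9.91, 9.77 and 9.33 at 1 dpa, with overlap (0.00 ± 0.21). In vehicle fins it read 9.81, 9.92 and 9.59 at 3 dpa, against 9.33, 9.12 and 9.43 at 1 dpa, without overlap (0.48 ± 0.21, adjusted p = 0.242). A second probe set of ccnd1 had 0.07 in TCDD and 0.51 in vehicle fins (adjusted p = 0.897 and 0.174). cdk2, the kinase that partners cyclins E and A, had -0.40 in TCDD and -0.64 in vehicle fins (adjusted p = 0.372 and 0.153). ccna2, the cyclin of S phase and G2, had 0.77 ± 0.27 in TCDD fins without overlap (adjusted p = 0.0894, with the letter block 0.0332) and -0.08 ± 0.27 in vehicle fins (adjusted p = 0.953).

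The polo-like kinases outside mitosis were read separately. plk2b, related to a stress-inducible kinase of mammals, read 6.73, 6.89 and 6.88 in TCDD fins at 3 dpa, against 8.13, 8.56 and 7.96 at 1 dpa. It fell by 1.38 ± 0.36 (2.61-fold, adjusted p = 0.0221), without overlap. In vehicle fins it read 7.42, 6.20 and 7.36 at 3 dpa, against 8.56, 8.45 and 7.70 at 1 dpa (-1.25 ± 0.36, adjusted p = 0.0577, with the letter block 0.00746). plk3, another stress-responsive kinase, had -0.74 in TCDD and -0.97 in vehicle fins (adjusted p = 0.309 and 0.203), called in both with the block (0.0132 and 0.00394). plk4, which starts centriole duplication, had 0.05 and -0.02 (adjusted p = 0.948 and 0.988).

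Between 3 and 5 dpa little was called. limma called 0 of 55 members in TCDD fins, where 0.0129% of all probe sets were called, and 0 in vehicle fins, where 0.342% were. Members with an unadjusted p under 0.05 numbered 7 in TCDD and 5 in vehicle fins, all lower at 5 dpa, against 6.63% and 12.1% of all probe sets. Replication medians were -0.28 in TCDD fins (27 of 28 lower) and -0.11 in vehicle fins (22 of 28 lower), and mitosis medians were -0.23 (18 of 19 lower) and -0.38 (17 of 19 lower). In TCDD fins orc1 read 5.72, 6.09 and 5.58 at 5 dpa, against 6.27, 6.48 and 6.19 at 3 dpa (-0.51 ± 0.18, adjusted p = 0.739), without overlap, where 12.3% of all probe sets were lower without overlap. In vehicle fins pole3 read 8.26, 8.02 and 8.20 at 5 dpa, against 8.72, 8.72 and 8.60 at 3 dpa (-0.52 ± 0.12, adjusted p = 0.0917, with the letter block 0.0498, where 2.08% of probe sets were called). Without TCDD letter C at 3 dpa the replication median in TCDD fins was -0.51. In vehicle fins it ran from -0.26 to 0.01 with 1 array left out, with a change of sign. Within a letter the vehicle replication median was -0.29 for A, -0.30 for B and 0.10 for C (19 of 28 higher).

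Further genes of the same machinery, listed by function, were counted over the same steps. Of 47 further mitosis genes, 39 were higher at 3 dpa in TCDD fins (median 0.45) and 3 rose, a share near the 4.73% of all probe sets called higher: cdc20, an activator of the anaphase-promoting complex, by 1.30 ± 0.33 (adjusted p = 0.0192), cdca8, of the chromosomal passenger complex, by 1.02 ± 0.29 (0.0352), and the phosphatase cdc14b by 0.88 ± 0.16 (0.00208). With the letter as a block 15 rose and 0 fell, where 14.8% of all probe sets were called in either direction. The calls of cdc20 and cdca8 were lost without TCDD letter B at 3 dpa (adjusted p = 0.0794 and 0.139) or letter B or D at 1 dpa (up to 0.0884 and 0.159), and that of cdca8 without letter C at 3 dpa (0.0687) and with the letter block (0.0570). That of cdc14b held with each array left out. In vehicle fins 16 of 47 were higher (median -0.10) and 0 were called, where 5.51% of all probe sets were. In that step 4 of the 47 had an unadjusted p under 0.05, against 17.985% of all probe sets. For TCDD minus vehicle at 1 dpa, 45 of 47 were lower (median -0.47), with 0 called, where 0.245% of all probe sets were. Of the 47, 15 had an unadjusted p under 0.05, against 8.01% of all probe sets. The smallest adjusted p was that of the dim kinase gene melk (-0.90 ± 0.28, adjusted p = 0.335), whose mean level was 4.54.

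Of 36 further replication genes, 28 were lower at 3 dpa in TCDD fins (median -0.32) and 35 in vehicle fins (median -0.48). In TCDD fins 4 fell, where 6.04% of all probe sets did: gins4, of the active helicase (-1.12 ± 0.27, adjusted p = 0.0154), uhrf1, which keeps DNA methylation on new strands (-0.87 ± 0.21, 0.0134), the histone chaperone nasp (-0.62 ± 0.18, 0.0362) and wdhd1, a fork protein (-0.47 ± 0.14, 0.0464). The cohesin gene smc1al rose by 0.46 ± 0.12 (0.0189). In vehicle fins 0 were called, where 5.51% of all probe sets were. In that step 21 of the 36 had an unadjusted p under 0.05, against 17.985% of all probe sets. In the block fit 5 fell, where 6.07% of all probe sets were called in either direction. Without TCDD letter C at 3 dpa the calls of gins4 (adjusted p = 0.0798), uhrf1 (0.0732), nasp (0.157) and wdhd1 (0.191) were lost, and without TCDD letter A at 1 dpa those of gins4 (0.0579), nasp (0.150), wdhd1 (0.141) and smc1al (0.0797). The call of uhrf1 was also lost without TCDD letter B at 1 dpa (0.0567) or A at 3 dpa (0.0520), those of nasp and smc1al without letter D at 1 dpa or A or B at 3 dpa (up to 0.0748 and 0.0730), and that of wdhd1 without any 1 of 14 arrays. With the letter as a block nasp was not called (0.0693). For TCDD minus vehicle 0 of the 36 were called at any day.

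Regulators of the cell cycle included calls between TCDD and vehicle. Their list also holds plk2b and plk3, which are members too. Of 42 regulators, 2 fell with TCDD at 3 dpa, where 1.11% of all probe sets were called: cdkn1ca, an inhibitor of cyclin-dependent kinases (-1.53 ± 0.30, adjusted p = 0.0198), and the transcription factor gene myca (-1.01 ± 0.21, 0.0299). The probe set of cdkn1ca was dim, with a mean level of 4.83, under the 40th percentile of all probe sets (5.44). At 5 dpa 2 fell, where 1.64% were called: cdkn1ca (-1.43 ± 0.30, adjusted p = 0.0252, with the letter block 0.0511) and mycb, a gene related to myca (-1.46 ± 0.33, 0.0369). At 1 dpa 0 of the 42 were called, where 0.245% of all probe sets were. On the mean of the 3 days cdkn1ca fell by 0.91 ± 0.17 (adjusted p = 0.00636), a call that held with each array left out (up to 0.0162). This mean is smaller in size than its differences at 3 and 5 dpa, and does not show a fall at 1 dpa. Also called on that mean, where 3.78% of all probe sets were, were mycb (-0.73 ± 0.19, adjusted p = 0.0440) and myca (-0.46 ± 0.12, 0.0457), lower, and gadd45ab, a gene of the stress-responsive growth arrest family (0.43 ± 0.11, 0.0473), higher. Each of these 3 calls was lost without any 1 of 13 arrays (up to 0.0993). Between 1 and 3 dpa 4 of the 42 were called in TCDD fins (1 higher, 3 lower), where 10.8% of all probe sets were. In vehicle fins 3 were called (2 higher, 1 lower), where 5.51% of all probe sets were. Among these 3, cdkn1ca rose by 2.16 ± 0.30 (adjusted p = 0.000598). This rise and the fall of cdkn1ca with TCDD at 3 dpa share arrays, since the vehicle fins at 3 dpa serve in both comparisons. The call of cdkn1ca at 3 dpa was lost without any 1 of TCDD letters A, B and C or vehicle letters A and C of that day (adjusted p up to 0.0940), and at 5 dpa without TCDD or vehicle letter A or B of that day (up to 0.0807). That of myca was lost without any 1 of the 6 arrays of 3 dpa (up to 0.125). That of mycb was lost without TCDD letter A at 1 or 3 dpa, TCDD letter B or D at 5 dpa, or any 1 vehicle array of 5 dpa (up to 0.124).

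Markers of other cell types changed over the same step from 1 to 3 dpa. Of 12 osteoblast markers 8 rose between 1 and 3 dpa in each exposure, where 4.73% of all probe sets rose in TCDD and 3.48% in vehicle fins. Their summed intensity was 37390 to 42691 at 3 dpa, against 13988 to 17342 at 1 dpa, in TCDD fins and 55875 to 71115, against 19504 to 30229, in vehicle fins. Of 21 markers of blastema and fin mesenchyme 8 rose and 2 fell in TCDD fins and 9 rose and 2 fell in vehicle fins. Of all probe sets 6.04% fell in TCDD and 2.03% in vehicle fins. These 21 markers summed to 25340 to 28232 at 3 dpa, against 20713 to 28490 at 1 dpa, in TCDD fins, with overlap. In vehicle fins the sums were 33026 to 40413, against 21693 to 29586, without overlap. Their difference of the steps, TCDD minus vehicle, was negative for 14 of 21 (median -0.33). None was called for it, where 0% of all probe sets were. Epidermal markers summed to 173718 to 202314 at 3 dpa, against 192112 to 222314 at 1 dpa, in TCDD fins and 193762 to 213797, against 208746 to 229468, in vehicle fins. The part of the cell makeup in the replication and mitosis values was not tested.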

How the data were processed

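Affymetrix zebrafish arrays of 18 pools were analysed. The deposited values are linear intensity on 1 scale for all arrays. Per the submitters' processing notes the authors used GCRMA, which corrects background, normalizes and summarises probes. No version or setting of it is given in the sources used here. Of 15617 probe sets, 115 controls were left out. Probe sets were named by the platform annotation with symbols brought up to date from RefSeq. A single symbol was found for 10795, several for 135 and none for 4572. No gene was named from a set with several. No sequence or coordinate was used here.

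log2(intensity + 1) was fitted with limma 3.58.1 in R 4.3.3 (6 group means, all 18 arrays, eBayes with a trend) and tested on simulated data first. p-values were adjusted over 15502 probe sets. Python 3.11.15 with matplotlib 3.10.9 drew the figures. The labels do not say whether pools came from separate experiments, so that p-values measure the spread between pools. Precision is limited by the number of arrays.

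The members, their roles and all gene lists were chosen with earlier results of these data known. Named with values were called members (up to 6 per direction and time step), anchor genes of each role, up to 4 genes of each further list by adjusted p, and members whose probe sets disagree. Others, such as orc5, bub3, cenps, plk3, plk4, ccnb2, pole3 and wdhd1, were named after their values were seen.

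Pool letters were checked for pairing through deviations from group means: 7 of 7 same-day pairs with the same letter correlated above 0.1 (0.204 to 0.700), while 2 of 20 pairs of unlike letters within a day did. Across days 23 of 24 pairs with the same letter correlated above 0.1 (median 0.372), against 16 of 84 pairs of unlike letters. The letters pair the arrays. Between 1 and 3 dpa, vehicle fins share only letter B and TCDD fins letters A and B, so the unblocked step mixes day with letter. The fit holds no letter term, and values from fits that block on the letter stand beside results they change. Alternatives were this block, a pseudocount of 16, median centring, quantile normalization, no dim probe sets (under the 40th percentile), a constant prior, only the groups compared, the mean of a gene's probe sets, each array left out, and both letter C arrays at 3 dpa or both letter B arrays at 1 dpa left out.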

Additional observations from a re-analysis of the deposited data

How the results depend on the processing

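Counts of called members moved by over 1.5 times as follows. For alternatives other than the block, the share of all probe sets called is not given beside them. For TCDD fins at 3 minus 1 dpa, 11 members were called, 20 with the replicate block, 3 when only the 2 groups compared were fitted (0 higher, 3 lower), 2 without letter C at 3 dpa and 4 without letter B at 1 dpa. For vehicle fins at 3 minus 1 dpa, 3 were called, 8 with the replicate block, 6 without dim probe sets, 0 with only the groups compared, 0 without letter C and 1 without letter B. Leaving out letter B was chosen after seeing the data. For vehicle fins at 5 minus 3 dpa the replicate block gave 1 call against 0, and for TCDD minus vehicle at 5 dpa the constant prior gave 1 against 0. With 1 array left out the counts ran from 2 to 15, from 0 to 5, from 0 to 0 and from 0 to 1 in these 4 comparisons. The replication median of TCDD fins at 5 minus 3 dpa was -0.28, -0.51 without letter C, and between -0.51 and -0.18 with 1 array left out. The mitosis median at 3 minus 1 dpa was 0.44 in TCDD fins and 0.74 with the block and without letter C, an alternative likewise chosen after seeing the data. For vehicle fins the value was -0.02, 0.29 with the replicate block and 0.36 with the block and without letter C. The other median and count results stayed within the spread between arrays or within 1.5 times, and no called value changed sign, under the alternatives run. Beside the calls named in the text, the replicate block changed no other call of a member. 3 pools a group and the dimness of 8 members limit what can be resolved. The GAPDH differences of letters B and C may do so too, though the actin difference was widest on another array. A motif search of promoters was planned but not run, as no promoter sequences were used here.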
